A study of Rattus norvegicus with 6 samples.

Results

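The genes described here load peptides onto MHC molecules in rat liver. They were the class II chains RT1-Ba, RT1-Bb, RT1-Da and RT1-Db1, the invariant chain Cd74, the class II transactivator Ciita, the class I light chain B2m, the peptide transporter subunit Tap1 and the immunoproteasome subunits Psmb8 and Psmb9. Members were the probe sets whose only gene symbol on the array was one of these names, which gave 18 probe sets for the 10 genes, of 31042 probe sets in all. The rule used no measured value, although the genes were listed with earlier results of these data known. None of the 18 passed limma in any of the 3 comparisons, and the data set bounds on how far they could have differed.

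Liver RNA was hybridised to 6 Affymetrix RG230 2.0 arrays, 2 in each group. BBDR.lyp/lyp rats carry 2 copies of a frameshift in Gimap5, which leaves few peripheral T cells, and become diabetic without treatment. They were labelled 55 days old after the onset of hyperglycemia (post-hyperglycemia) and 50 days old before it (pre-hyperglycemia). BBDR.+/+ rats, labelled 55 days old, carry the normal gene on the same congenic BBDR background and stay free of diabetes. The series' design text allows 5 days either side of each age. The labels describe a fast before liver collection and a 3' amplification kit, whereas the methods describe free access to food and a kit with 2 amplification cycles. Nothing in the labels says that the arrays of a group came from separate rats, so the p-values measure the spread between these samples only. Repeated liver sampling of the same rats is described in the methods, but no label ties an array to a rat.

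MHC class II molecules are pairs of an alpha and a beta chain that show fragments of engulfed protein to CD4+ T cells. RT1-B and RT1-D are the rat counterparts of human HLA-DQ and HLA-DR, and the RT1u class II haplotype of BB rats is a condition for their diabetes. Cd74 fills the groove of a new class II molecule until it reaches the endosome, and Ciita switches on the transcription of all these genes. Class I molecules show fragments of a cell's own proteins to CD8+ T cells, after cutting by the proteasome and transport by Tap1 and Tap2. In liver, class II is carried mainly by Kupffer cells, dendritic cells, B cells and sinusoidal endothelium, and hepatocytes carry little of it at rest. Interferon gamma raises both sets of genes.

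The promoters of class II genes share an X box, bound by the RFX complex, and a Y box, bound by NF-Y, through which Ciita acts. The sequences below are shown because they do not rest on the arrays and hold the matches to these boxes found in the class II chains named above. They come from RefSeq on GRCr8, an assembly of another rat strain, so the letters in BBDR rats may differ. Promoters were listed for 9 of the 10 genes, all but Ciita. The capitals mark the X box in the searched form and the core of the Y box, or for RT1-Ba the Y box alone.
RT1-Da, chr20:4515323-4515380, plus strand: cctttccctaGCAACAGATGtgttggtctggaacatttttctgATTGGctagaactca
RT1-Db1, chr20:4560228-4560284, minus strand: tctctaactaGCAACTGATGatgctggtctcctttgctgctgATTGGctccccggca
RT1-Bb, chr20:4604165-4604221, minus strand: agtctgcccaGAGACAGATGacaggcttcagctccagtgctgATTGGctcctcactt
RT1-Ba, chr20:4577001-4577028, plus strand: ggggaattttCTGATTGGtctgtcgggt

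The pair was searched on both strands as an X box form (G, any 2 bases, AC, any 3 bases, TG) followed by ATTGG after 20 to 25 bases, in the 250 bases before each start. It was present in 0.295% of 27457 rat promoters, and the Y box form CTGATTGG, whose last letters are the ATTGG of the pair, in 3.26%. These forms were chosen after the sequences had been seen. The pair began 82 bases before the start of RT1-Da, 112 before RT1-Db1 and 93 before RT1-Bb. The pair was not limited to class II chains: B2m held it 97 bases before its listed start, past another annotated start of the gene, so those letters are not shown. RT1-DMa, a class II peptide loading gene that is no member, also held the pair, 97 bases before its start. The promoter of RT1-Ba held the Y box form 46 bases before its start and no match to the pair as searched. The class I side is controlled in part by interferon response elements, and the matches to these are shown next, in capitals.
B2m, chr3:129549170-129549199, plus strand: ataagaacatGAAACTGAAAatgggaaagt
Tap1, chr20:4668645-4668674, minus strand: cggtggctgcTTTCGGTTTCttcttcctct
Psmb8, chr20:4657258-4657281, minus strand: agctgTTCCCAGAAgatgcccctc

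B2m and Tap1 matched the interferon-stimulated response element, searched as a pair of GAAA with any 2 bases between them, on both strands, and found in 3.29% of promoters. Psmb8 matched the interferon gamma activated site, searched as TTCNNNGAA and found in 7.52%. In Cd74 and Psmb9 none of the searched letters occurred in this window. Tap1 and Psmb9 run in opposite directions on chromosome 20, with 456 bases between their starts. All 4 class II chains, Tap1, Psmb8 and Psmb9 lie on chromosome 20, B2m on chromosome 3, Cd74 on chromosome 18 and Ciita on chromosome 10.

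The medians of the 6 arrays were nearly equal, at 5.90 to 5.94 on the log2 scale of the deposited values. The control probe sets at both ends of the actin transcript differed by 2.04 to 2.11 (3' minus 5', log2) on the post-hyperglycemia arrays, against 1.32 to 1.51 on the pre-hyperglycemia and 1.12 to 1.36 on the BBDR.+/+ arrays. Those of GAPDH differed by 1.33 to 1.37, 0.55 to 0.67 and 0.44 to 0.72 in the same groups, so the post-hyperglycemia arrays had the least signal from 5' ends. The part of this in the results below was not tested beyond a covariate for it. That covariate closely follows the post-hyperglycemia group, so the fit with it cannot tell them apart. Albumin, the main product of hepatocytes, lay at 14.60 to 14.62 on all arrays. The labels give no sex. Xist was at 11.34 and 11.38 on the post-hyperglycemia arrays, 11.23 and 11.05 on the pre-hyperglycemia arrays and 11.24 and 11.10 on the BBDR.+/+ arrays, highest after hyperglycemia but not called. Of the Y-linked genes, Eif2s3y was dim, at 2.27 to 2.62, whereas Uty lay at 9.18 to 9.68 on the 6 arrays. Of the sex-biased genes, the female-type Cyp2c12 lay at 13.65 to 13.82 and the male-type Cyp2c11 at 5.6 to 6.3. Except for Uty, these values read as those of females on all 6 arrays, although no label states it.

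Of the class II chains, RT1-Ba and RT1-Db1 were higher after hyperglycemia than in BBDR.+/+ on their leading probe sets, without passing the test. RT1-Ba encodes the alpha chain of RT1-B. On its brightest probe set (1377334_at) the signal was 9.68 and 9.50 (log2) on the post-hyperglycemia arrays, 9.48 and 9.14 on the pre-hyperglycemia arrays and 9.12 and 9.16 on the BBDR.+/+ arrays. Both post-hyperglycemia arrays lay above all others, and the pre-hyperglycemia pair was spread over most of the gap. The log2 difference from BBDR.+/+ was 0.45 (SE 0.13, 95% interval 0.17 to 0.73, adjusted p = 0.0738 from limma), where 0.50 would have been needed for a call. In this comparison 5.15% of all probe sets were called by limma, and 19.7% had an unadjusted p under 0.05, as 4 of the 18 did here. This value turned into a call under 7 of 17 alternatives, among them when dim probe sets were left out and with an intensity trend. The call also came with only the 4 arrays of the comparison and without either pre-hyperglycemia array. Those fits, counted apart in the 7, gave an identical result and are not separate evidence. The log2 difference was 0.00 with the covariate for 5' signal. The difference from pre-hyperglycemia was 0.28 (adjusted p = 0.348).

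The other probe sets of RT1-Ba did not share this pattern. The probe set 1370822_at stood at 9.25 and 9.30 after hyperglycemia, 9.23 and 9.32 before it and 9.21 and 9.34 in BBDR.+/+, so all groups overlapped. Its 95% interval for post-hyperglycemia minus BBDR.+/+ was -0.23 to 0.23. This overlaps the 0.17 to 0.73 of the first probe set, and the difference between the probe sets was not tested. The log2 differences from BBDR.+/+ of 1392334_at and 1381593_x_at were -0.09 and 0.06, again with overlapping groups. A suffix _x_at marks a probe set that can also bind transcripts of related genes, as _s_at does. RT1-Ba therefore had 1 probe set with a difference near the threshold and 3 without, and the arrays do not say which of them tracks the transcript best.

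RT1-Db1, the beta chain of RT1-D, gave 8.67 and 8.57 on the post-hyperglycemia arrays, 8.49 and 8.40 on the pre-hyperglycemia arrays and 8.31 and 8.34 on the BBDR.+/+ arrays (1370383_s_at). The 3 groups did not overlap. The log2 difference was 0.29 from BBDR.+/+ (SE 0.10, adjusted p = 0.139), 0.17 from pre-hyperglycemia (adjusted p = 0.481) and, for pre-hyperglycemia minus BBDR.+/+, 0.12 (adjusted p = 0.735). The first was called only when tests were limited to the brightest 30% of probe sets. The second probe set (1370382_at) was dim, at 3.39 to 3.51 on the 6 arrays, and differed by -0.03 from BBDR.+/+.

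RT1-Da, the alpha chain that pairs with RT1-Db1, lay on the other side. It was at 10.25 and 10.09 on the post-hyperglycemia arrays, 10.38 and 10.31 on the pre-hyperglycemia arrays and 10.47 and 10.34 on the BBDR.+/+ arrays. Both post-hyperglycemia arrays were below the other 4, which overlapped with each other. The log2 difference was -0.24 from BBDR.+/+ (SE 0.11, 95% interval -0.48 to 0.00, adjusted p = 0.258) and -0.18 from pre-hyperglycemia (adjusted p = 0.508). Over the alternatives tried the first ranged from -0.69 to -0.16 and was never called. RT1-Bb, the beta chain of RT1-B, was at 9.66 and 9.63 after hyperglycemia, 9.58 and 9.71 before it and 9.44 and 9.61 in BBDR.+/+ (1371065_at). It differed by 0.12 from BBDR.+/+ (adjusted p = 0.606) and by 0.00 from pre-hyperglycemia. Its dim probe set (1371033_at) had 4.85 and 4.06 on the post-hyperglycemia arrays, more apart than any other pair of a group among the 18, and was called as higher (0.56) than BBDR.+/+ only when post-hyperglycemia replicate 2 was left out.

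**Figure D1:**
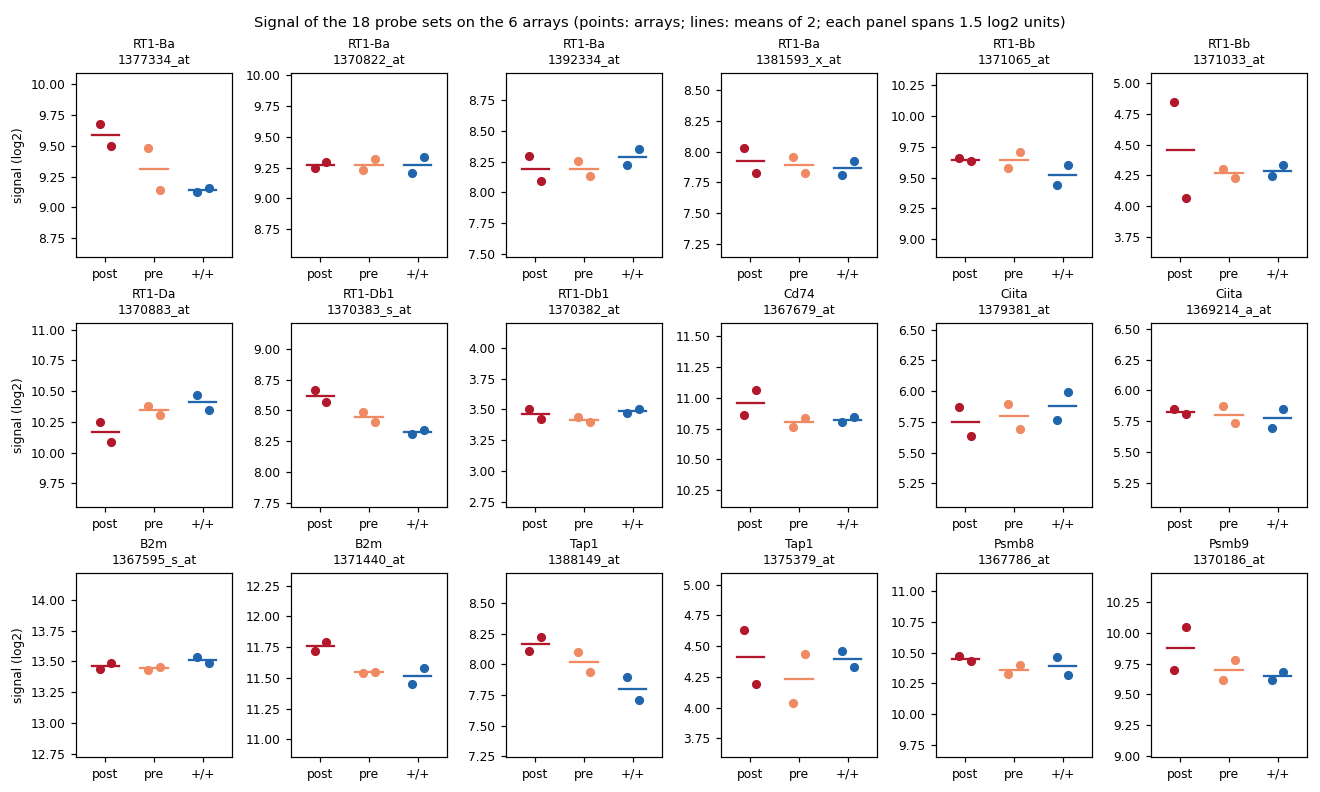
Signal (log2, vertical axis) of the 18 probe sets on each array, by group (post, BBDR.lyp/lyp post-hyperglycemia; pre, BBDR.lyp/lyp pre-hyperglycemia; +/+, BBDR.+/+). Points are arrays, lines are means of 2, and every panel spans the same range of log2 units; the widest pair is RT1-Bb 1371033_at after hyperglycemia, at 4.85 and 4.06.

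Cd74, which chaperones the class II chains, was at 10.86 and 11.06 on the post-hyperglycemia arrays, 10.77 and 10.84 on the pre-hyperglycemia arrays and 10.80 and 10.84 on the BBDR.+/+ arrays. The post-hyperglycemia arrays were the 2 highest, although replicate 1 lay only just above the rest. The log2 difference was 0.14 from BBDR.+/+ (95% interval -0.10 to 0.38, adjusted p = 0.548) and 0.16 from pre-hyperglycemia (95% interval -0.08 to 0.40, adjusted p = 0.555). Ciita, on which class II transcription depends, was near the median of the array, at 5.63 to 5.99 on 1379381_at and 5.70 to 5.88 on 1369214_a_at. The groups overlapped on both, with log2 differences from BBDR.+/+ of -0.13 and 0.06.

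Among the class I genes, Tap1 was highest after hyperglycemia. On its brighter probe set (1388149_at) the signal was 8.11 and 8.22 on the post-hyperglycemia arrays, 8.10 and 7.94 on the pre-hyperglycemia arrays and 7.89 and 7.71 on the BBDR.+/+ arrays. No group overlapped with another, although post-hyperglycemia replicate 1 and pre-hyperglycemia replicate 1 were almost level. The log2 difference was 0.36 from BBDR.+/+ (SE 0.11, 95% interval 0.11 to 0.62, adjusted p = 0.101), 0.15 from pre-hyperglycemia (adjusted p = 0.615) and 0.22 for pre-hyperglycemia minus BBDR.+/+ (adjusted p = 0.523). The first was called only among the brightest 30% of probe sets, and it was -0.18 with the covariate for 5' signal. The dim probe set 1375379_at differed by 0.02 from BBDR.+/+, with overlapping groups.

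Psmb9, a catalytic subunit of the immunoproteasome, was at 9.70 and 10.05 after hyperglycemia, 9.62 and 9.78 before it and 9.62 and 9.68 in BBDR.+/+. Post-hyperglycemia replicate 2 alone lay apart from the other 5 arrays. Its log2 difference from BBDR.+/+ was 0.22 (SE 0.13, adjusted p = 0.384). Psmb8, another catalytic subunit of the immunoproteasome, was at 10.47 and 10.43 after hyperglycemia, 10.32 and 10.40 before it and 10.46 and 10.31 in BBDR.+/+, a difference from BBDR.+/+ of 0.06 with a 95% interval of -0.17 to 0.29. The probe sets of B2m disagreed in size. On 1371440_at it was at 11.72 and 11.79 after hyperglycemia, 11.54 and 11.55 before it and 11.45 and 11.58 in BBDR.+/+, which gave 0.24 over BBDR.+/+ (adjusted p = 0.230) and 0.21 over pre-hyperglycemia (adjusted p = 0.382). On the brighter 1367595_s_at all 6 arrays lay between 13.43 and 13.53, and the difference from BBDR.+/+ was -0.05. The 95% interval of that probe set was -0.27 to 0.17. This overlaps the 0.01 to 0.47 of 1371440_at, and the difference between the probe sets was not tested.

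Over the 18 probe sets, the post-hyperglycemia arrays lay above both BBDR.+/+ arrays in 7 and below both in 2, where 26.7% and 22.1% of all probe sets did so. Against pre-hyperglycemia the counts were 6 above and 1 below (23.6% and 20.9% of all probe sets), and for pre-hyperglycemia against BBDR.+/+ 2 and 2 (21.6% and 21.0%). The median log2 difference of the 18 was 0.06 from BBDR.+/+, 0.07 from pre-hyperglycemia and -0.01 for pre-hyperglycemia minus BBDR.+/+, beside medians of 0.01, 0.01 and -0.00 over all probe sets. limma called 2.18% of all probe sets in post-hyperglycemia versus pre-hyperglycemia and 0.718% in pre-hyperglycemia versus BBDR.+/+, and 0 of the 18 in each, with 0 at an unadjusted p under 0.05 (14.9% and 11.4% of all probe sets). The rank product test of the methods called 0 of the 18 in the 3 comparisons, and 2.40%, 1.73% and 1.29% of all probe sets.

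**Figure D2:**
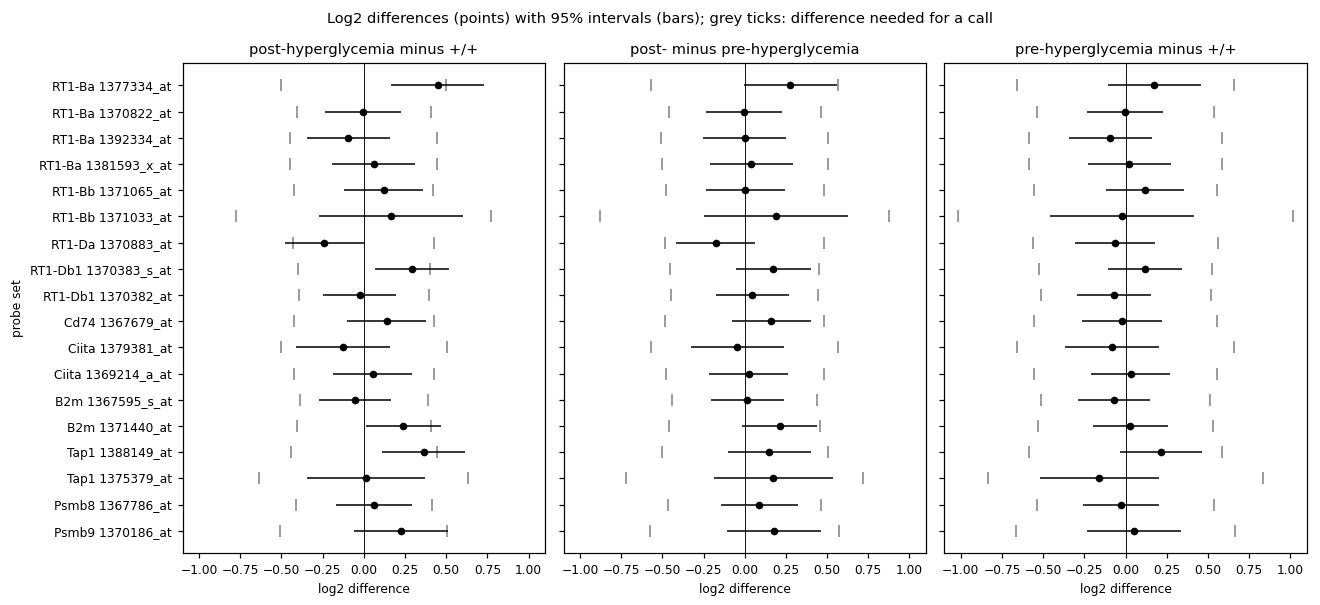
Log2 difference (horizontal axis) of each of the 18 probe sets in the 3 comparisons, with 95% intervals from limma as bars. Grey ticks mark the difference that a call at an adjusted p of 0.05 would have needed; every point lies inside its ticks, and RT1-Ba 1377334_at comes closest, at 0.45 where 0.50 was needed.

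How much could have been missed was read from the intervals. A call needed a log2 difference of 0.39 to 0.77 (median 0.43) between post-hyperglycemia and BBDR.+/+, 0.44 to 0.88 (median 0.48) between post- and pre-hyperglycemia and 0.51 to 1.02 (median 0.56) between pre-hyperglycemia and BBDR.+/+. The bounds of all 18 intervals lay between -0.48 and 0.73 in the first comparison, -0.42 and 0.63 in the second and -0.52 and 0.47 in the third. Smaller differences could not have been called in this fit over 31042 probe sets, although 0.29 for RT1-Db1 and 0.36 for Tap1 were called among the brightest 30%. The SD over the 6 arrays was 0.04 to 0.27 for the 18 (median 0.11), and 0.13 at the median of all probe sets. The share of a cell type and the RNA per cell cannot be told apart in whole liver.

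The genes varied in separate ways over the 6 arrays. By brightest probe set, RT1-Ba moved with RT1-Db1 (Pearson's r = 0.96 over 6 arrays) and with Tap1 (r = 0.81), and Cd74 moved with Psmb9 (r = 0.96). RT1-Da ran opposite to Cd74 (r = -0.91) and Psmb9 (r = -0.91), and was at r = -0.70 with its partner chain RT1-Db1. These are descriptions over 3 groups of 2 arrays, which share the group differences and the array's own quality. On post-hyperglycemia replicate 2 Cd74 (11.06) and Psmb9 (10.05) were highest of the 6 arrays and RT1-Da (10.09) lowest. No correlation was computed without that array. Among 1383 probe sets of the upper part of the signal range that varied, those most like Cd74 belonged to Ccdc137 (r = 0.98), Ppp1r14b, which inhibits protein phosphatase 1 (r = 0.96), LOC100912167 (r = 0.96), the splicing factor Srrm2 (r = 0.96) and the spliceosome component Snrnp48 (r = 0.96). Those most like Psmb9 belonged to the liver phosphofructokinase Pfkl (r = 0.97), the nuclear pore protein Nup133 (r = 0.96), Snrnp48 (r = 0.96), Ppp1r14b (r = 0.95) and LOC100912002 (r = 0.94).

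**Figure D3:**
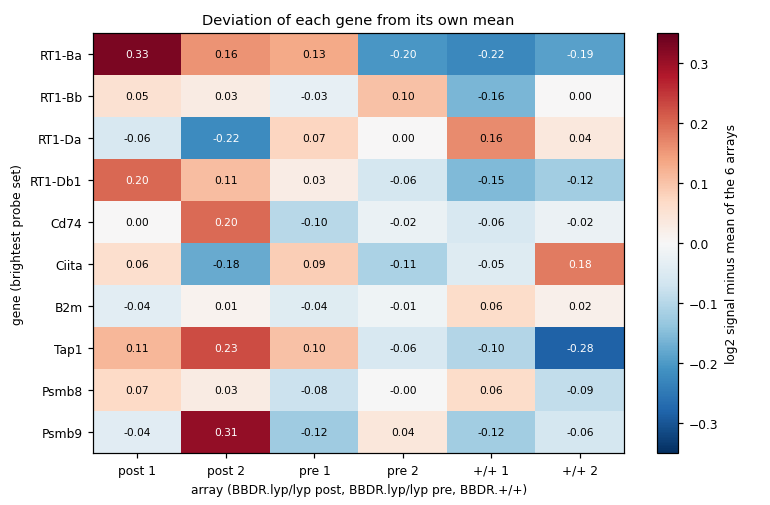
Log2 signal minus the mean of the 6 arrays (colour and number) for 10 genes, each by its brightest probe set (rows), on each array (columns). RT1-Ba and RT1-Db1 are highest on post-hyperglycemia replicate 1, whereas Cd74, Psmb9 and Tap1 are highest on replicate 2 of the same group.

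The rest of the pathway was read from 10 lists of genes, of which 75 of 102 were measured and 65 were no members. By the brightest probe set of a gene, 3 were higher and 4 lower after hyperglycemia than in BBDR.+/+, among 2.29% higher and 1.24% lower over all 14217 genes. With the covariate for 5' signal, and by the methods' t-test after Benjamini-Hochberg adjustment, 0 of these 7 were called. The 8 genes of lysosomal antigen processing held 2 that were higher, 0 that were lower and 6 that did not pass, and their median was 0.10 (0.04 over all genes). Ctss, the cathepsin that trims the invariant chain, was at 10.77 and 10.78 after hyperglycemia, 10.68 and 10.68 before it and 10.40 and 10.34 in BBDR.+/+. It rose by 0.40 relative to BBDR.+/+ (SE 0.10, adjusted p = 0.0433). Lgmn, an endopeptidase that opens the invariant chain and antigens, was higher than in BBDR.+/+ by 0.39 (SE 0.10, adjusted p = 0.0473). It was at 0.31 in pre-hyperglycemia minus BBDR.+/+ and at 0.09 in post- minus pre-hyperglycemia, without passing. Both calls ended when any of the 6 arrays was left out, at 0.37 to 0.43 for Ctss and 0.36 to 0.42 for Lgmn. Without a pre-hyperglycemia array the difference of Ctss stayed at 0.40, and only the estimate of the spread changed. The dimmer probe set of Lgmn was at -0.12. Ifi30, which reduces disulfide bonds of antigens, and the protease Ctsd differed by 0.18 and 0.15 without passing. The genes of the peptide editor RT1-DM, RT1-DMa and RT1-DMb, differed by 0.14 each, and 0 of the 7 measured class II chain and loading genes passed (median 0.14).

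Of 8 class II regulators 0 were higher, 1 was lower and 7 did not pass (median 0.10). Creb1, which can bind the X2 part of the X box, fell by 0.55 relative to BBDR.+/+ (SE 0.11, adjusted p = 0.0199) on a probe set with a mean of 5.42. Its 3 dimmer probe sets were at -0.07, 0.07 and 0.12, and the call ended without either post-hyperglycemia or either BBDR.+/+ array (-0.57 to -0.53). Rfx5, the RFX subunit that binds the X box printed above, was at 8.47 and 8.37 after hyperglycemia, 8.02 and 7.95 before it and 8.14 and 8.16 in BBDR.+/+. It differed by 0.43 from pre-hyperglycemia (adjusted p = 0.0579) and by 0.26 from BBDR.+/+ (adjusted p = 0.176). Nfya, a subunit of NF-Y, differed by 0.35 from BBDR.+/+ (adjusted p = 0.235) and Rfxank by 0.13. The dimmer probe set of Nfya was at -0.14.

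**Figure D4:**
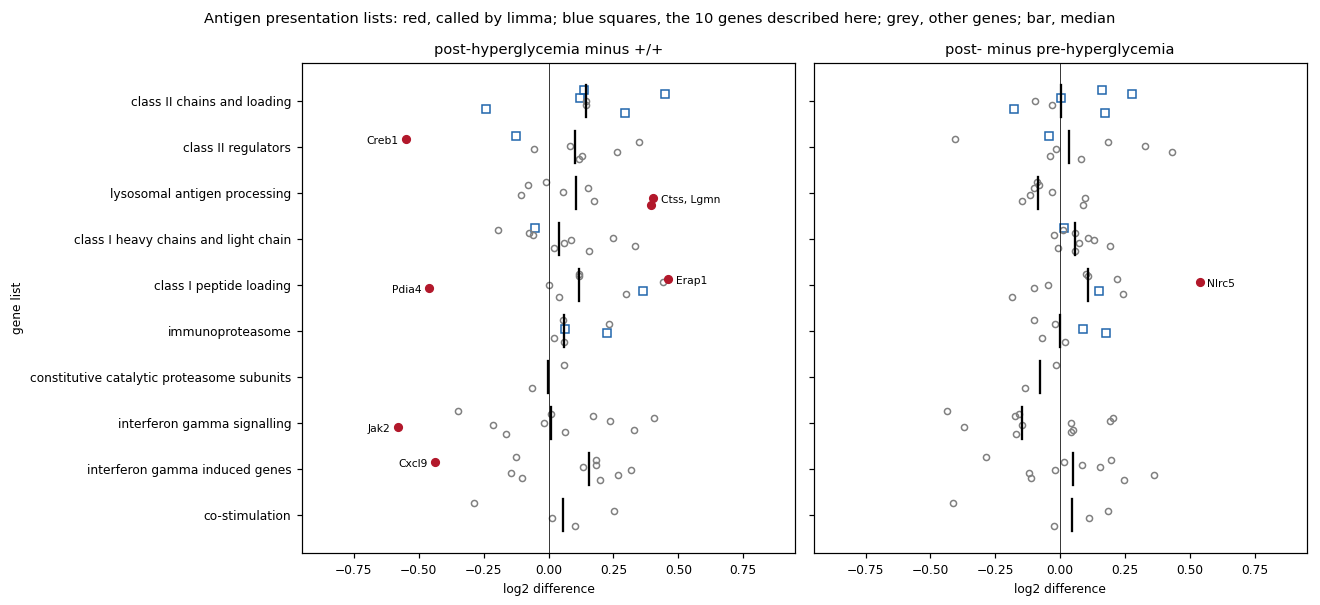
Log2 difference (horizontal axis) of each measured gene in 10 antigen presentation lists, for post-hyperglycemia minus BBDR.+/+ (left) and post- minus pre-hyperglycemia (right). Red points passed limma (7 genes on the left, 1 on the right), blue squares are the 10 genes described above, and black bars are the medians of the lists.

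Of 9 genes of class I peptide loading 1 was higher, 1 lower and 7 did not pass (median 0.12). Erap1, the aminopeptidase that trims peptides in the endoplasmic reticulum, rose by 0.46 relative to BBDR.+/+ (SE 0.12, adjusted p = 0.0469). The other 2 probe sets of Erap1 were at 0.18 and -0.10. Pdia4, a protein disulfide isomerase, was lower than in BBDR.+/+ by 0.46 (SE 0.11, adjusted p = 0.0361). It was at -0.36 in pre-hyperglycemia minus BBDR.+/+ and at -0.10 in post- minus pre-hyperglycemia, without passing. Nlrc5, the transactivator of class I genes and a relative of Ciita, was at 7.08 and 7.28 after hyperglycemia, 6.54 and 6.73 before it and 6.80 and 6.66 in BBDR.+/+. It rose by 0.54 relative to pre-hyperglycemia (SE 0.12, adjusted p = 0.0449), the only gene of the lists to pass there, among 1.37% of all genes, and differed by 0.44 from BBDR.+/+ (adjusted p = 0.0593). The call against pre-hyperglycemia ended when any of the 6 arrays was left out (0.44 to 0.64). Leaving out a BBDR.+/+ array changed only the estimate of the spread, not this difference. Erap1 passed only in the fit without post-hyperglycemia replicate 1 among the 6 leave-one-out fits (0.34 to 0.58), and Pdia4 not without either post-hyperglycemia or either BBDR.+/+ array (-0.55 to -0.37). Tap2, the partner of Tap1, differed by 0.30 (adjusted p = 0.189).

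The 10 class I heavy and light chain genes (median 0.04), the 6 immunoproteasome genes (median 0.06) and the 2 measured catalytic subunits of the constitutive proteasome had 0 calls against BBDR.+/+. Probe sets of class I heavy chains can bind transcripts of near-identical RT1 genes. Values such as the 0.33 of RT1-N3, the 0.25 of RT1-CE5 and the 0.16 of RT1-T24-4 are therefore uncertain. The dimmer probe sets of RT1-CE5 were at -0.03 to 0.09. Psmb10, the remaining catalytic subunit of the immunoproteasome, differed by 0.23 (adjusted p = 0.254), and Psme1 and Psme2, the activators of the proteasome, by 0.02 and 0.06. Their constitutive counterparts Psmb5 and Psmb7 were at 0.06 and -0.06.

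Of 11 genes of interferon gamma signalling 0 were higher, 1 was lower and 10 did not pass (median 0.01). This count used the brightest probe set of each gene, and a dimmer probe set of Jak1 was called as lower (-1.27). Jak2, a kinase of the interferon gamma receptor, was at 5.60 and 5.94 after hyperglycemia, 6.14 and 6.14 before it and 6.27 and 6.43 in BBDR.+/+. It fell by 0.58 relative to BBDR.+/+ (SE 0.13, adjusted p = 0.0268). The difference was -0.07 with the covariate for 5' signal, and it did not pass without post-hyperglycemia replicate 1, BBDR.+/+ replicate 1 or BBDR.+/+ replicate 2 (-0.75 to -0.41 over the leave-one-out fits). Irf1, a factor that drives Tap1 and Psmb9, was at 9.11 and 9.22 after hyperglycemia, 8.97 and 8.94 before it and 8.82 and 8.69 in BBDR.+/+, a difference of 0.41 from BBDR.+/+ (adjusted p = 0.0518). The probe set of Ifng itself was dim, at 2.95 to 3.99 over the 6 arrays.

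Of 10 genes that interferon gamma induces 0 were higher, 1 was lower and 9 did not pass (median 0.16). Cxcl9, a chemokine for T cells, was at 7.07 and 7.11 after hyperglycemia, 7.06 and 7.08 before it and 7.53 and 7.52 in BBDR.+/+. It fell by 0.44 relative to BBDR.+/+ (SE 0.10, adjusted p = 0.0303), and not past the threshold without either post-hyperglycemia or either BBDR.+/+ array (-0.46 to -0.42). Icam1, an adhesion molecule, differed by 0.32, the GTPase Igtp by 0.27 and the nitric oxide synthase Nos2 by 0.20, without passing. The dimmer probe set of Igtp was called as lower (-0.84). Of the 4 measured genes of co-stimulation 0 passed, with Cd40 at 0.25, Cd86 at 0.10, Cd80 at 0.01 and Cd4 at -0.29. Another probe set of Cd86, nearly as bright, was at -0.38. In pre-hyperglycemia versus BBDR.+/+ 0 of the 75 genes passed, where 0.802% of all genes did, and rank product called 0. There 9 of the 75 had an unadjusted p under 0.05 from limma (11.4% of all probe sets). After hyperglycemia 20 of the 75 had one against BBDR.+/+ (19.7% of all probe sets). Against pre-hyperglycemia 8 of the 75 did (14.9% of all probe sets), and rank product called 0 in both comparisons. The 75 were read by their brightest probe sets, whereas these shares include dim probe sets and those without a gene symbol.

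Markers of the cells that carry class II differed between the groups as well, and their part in the values above was not tested. Of 9 measured markers of Kupffer cells and macrophages 4 were higher after hyperglycemia than in BBDR.+/+. In that comparison limma called 2.29% of all genes as higher and 1.24% as lower, by the brightest probe set of each. The summed linear signal of the 9 markers was 13484 to 14202 after hyperglycemia, 12977 to 13332 before it and 10709 to 10921 in BBDR.+/+. Dendritic cells had 1 of 6 markers higher (Clec10a, a lectin, 0.50, adjusted p = 0.0400), with sums of 319 to 330, 274 to 284 and 278 to 298 in the same groups. Without Clec10a they were 231 to 237, 214 to 217 and 217 to 232, so those after hyperglycemia and in BBDR.+/+ overlapped. In B cells 1 of 6 was lower (Fcrla fell by 0.68) and 4 of 6 differences were above 0 (median 0.04). The B cell sums were 444 to 465, 456 to 460 and 497 to 527 with Fcrla and 326 to 343, 323 to 328 and 318 to 321 without it, so the lower sums in BBDR.lyp/lyp came from Fcrla alone. In T cells 1 of 10 was lower (Cd8b, a co-receptor chain of cytotoxic T cells, fell by 0.45) and 8 of 10 differences were below 0, with sums of 444 to 486, 456 to 485 and 530 to 537. Sinusoidal endothelium had 1 of 6 higher (Pecam1, 0.49), with sums of 4515 to 4975, 4872 to 4991 and 3967 to 4475. Neutrophils and monocytes had 3 of 7 higher, among them the calcium-binding S100a8 (1.29) and S100a9 (1.46), which also rose in pre-hyperglycemia relative to BBDR.+/+ (1.21 and 1.66). Cd14, a receptor for bacterial lipopolysaccharide, fell by 0.99 relative to pre-hyperglycemia (adjusted p = 0.00679) and was at -0.53 from BBDR.+/+. It set the sums of that list, which were 788 to 879, 1126 to 1225 and 783 to 864 with Cd14 and 484 to 523, 499 to 538 and 345 without it. Of 7 hepatocyte markers 0 were called in each comparison by limma or rank product, and an unadjusted p under 0.05 was found for 0 after hyperglycemia against BBDR.+/+, for 1 after against before hyperglycemia and for 2 before hyperglycemia against BBDR.+/+. The sums of Kupffer cells, endothelium and T cells did not overlap between BBDR.+/+ and either BBDR.lyp/lyp group. This held also without the marker of each list with the largest change in linear signal (Clec4f, Lyve1 and Lck). Without Lyve1 the endothelial sums came close, at 3397 to 3730 after hyperglycemia and 3016 to 3363 in BBDR.+/+. Of all single probe sets, 26.7% lay above and 22.1% below both BBDR.+/+ arrays after hyperglycemia, and 21.6% and 21.0% before it.

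**Figure D5:**
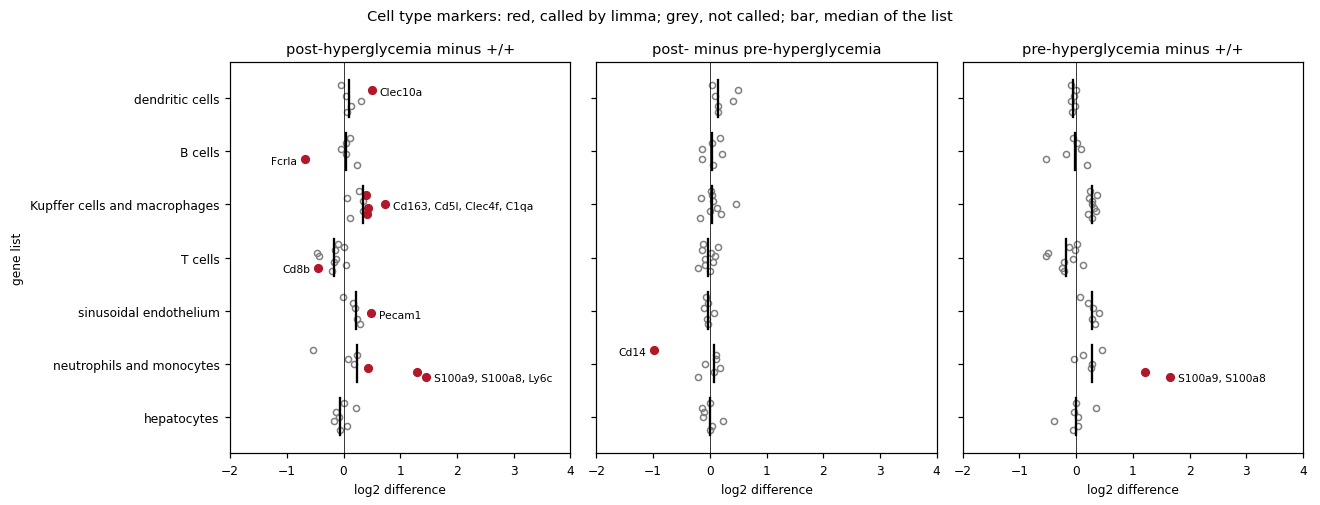
Log2 difference (horizontal axis) of the measured markers of 7 cell types in the 3 comparisons; red points passed limma and black bars are medians. In post-hyperglycemia minus BBDR.+/+ 4 of 9 markers of Kupffer cells and macrophages are red, all to the right of 0, and 0 of 7 hepatocyte markers. Of all genes, by brightest probe set, 2.29% were called as higher there.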

How the data were processed

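Total liver RNA was amplified, labelled and hybridised by the authors, who used Affymetrix Expression Console for quantification and Partek Genomic Suite for normalization. The deposited values were 1 log2 signal per probe set and array, and algorithm and software versions were not given in the sources used. Of 31099 probe sets, 57 controls were set aside and no filter on signal was applied. Gene symbols came from the array's annotation, where 20826 probe sets had 1 symbol, 436 several and 9780 none, and all 10 genes were found in the current RefSeq table.

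limma (version 3.58.1, R 4.3.3) was fitted with 1 mean per group over all 6 arrays (3 residual and 7.7 prior degrees of freedom). A probe set was called at a Benjamini-Hochberg adjusted p under 0.05 over 31042 probe sets. The rank product of the methods used the 4 pairwise log2 ratios, 100 permutations and a false positive share under 0.20. Both were tested on simulated data. The brightest probe set of a gene stood for it in gene lists. The named genes were every member probe set, up to 4 other genes per list with the smallest p against BBDR.+/+ and the 5 genes most like Cd74 and Psmb9. Called markers were named after their values were seen. Members and lists were chosen with earlier results of these data known, and the numbers of arrays limit the precision. The alternatives were other normalizations (median, quantile, ribosomal protein genes), filters on dim probe sets, the methods' t-test, rank product, an intensity trend, only the arrays of a comparison, a replicate block, the 3' to 5' difference of controls as a covariate, leaving out each array and, for lists, the mean of a gene's probe sets. Tables and figures were made in Python 3.11.15 with pandas 2.3.3, numpy 2.4.6, matplotlib 3.10.9 and scipy 1.17.1.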

Additional observations from a re-analysis of the deposited data

How the results depend on the processing

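The number of the 18 probe sets called against pre-hyperglycemia, and in pre-hyperglycemia versus BBDR.+/+, was 0 under all 17 alternatives each. In post-hyperglycemia versus BBDR.+/+ it was 0 under 9 of 17. It was 1 (RT1-Ba) with the brightest 60% of probe sets, 1 (RT1-Ba) with only the 4 arrays, 1 (RT1-Ba) with an intensity trend and 3 (RT1-Ba, RT1-Db1 and Tap1) with the brightest 30%. It was 0 to 1 with 1 array left out (RT1-Ba without pre-hyperglycemia replicate 1 or 2, RT1-Bb without post-hyperglycemia replicate 2). For RT1-Ba, the fits without a pre-hyperglycemia array gave the same result as the fit with only the 4 arrays. The cause of the changed counts was not tested, beyond the fewer probe sets or arrays of these fits.

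Over all probe sets, the methods' t-test called 0 in the first comparison (post-hyperglycemia versus BBDR.+/+), 0 in the second (post- versus pre-hyperglycemia) and 1 in the third (pre-hyperglycemia versus BBDR.+/+), and the 3' to 5' covariate left 0, 0 and 115. Rank product called 746 in the first and 399 in the third. The intensity trend gave 1225 in the second and 496 in the third, only the 4 arrays 413 in the second, and the brightest 30% 403 in the third. With 1 array left out the counts were 291 to 1567, 112 to 537 and 12 to 212. The lowest counts came without BBDR.+/+ replicate 2, pre-hyperglycemia replicate 2 and BBDR.+/+ replicate 2. Centring on ribosomal protein genes gave 54.1% and 50.7% of calls as higher in the first and second, where the main test gave 36.7% and 32.9%. With a gene's probe sets averaged, the lists had 4 calls (Ifngr2, Jak1, Nlrc5 and Rfx5) against pre-hyperglycemia and 1 (Cxcl9, lower) in pre-hyperglycemia versus BBDR.+/+, and the cause was not tested.

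Same-numbered arrays deviated together only weakly (correlations of 0.11, 0.14 and 0.26 over probe sets), and with 2 numbers per group no pairing was established. With the replicate block limma called 2273, 1191 and 408 probe sets in the 3 comparisons, and 1 (RT1-Ba), 0 and 0 of the 18. The signs of the 18, of which the main test called 0, changed in 18 of 298, 27 of 298 and 23 of 298 refits. Among 36 probe sets of the other named genes the 3' to 5' covariate changed 9 signs in the first comparison, 15 in the second and 0 in the third.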

Other observations

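Several genes of the pathway had a dimmer probe set that passed limma where the brightest did not, or passed by a larger margin. Among 20 dimmer probe sets of the named genes that are no members, 3 were called in post-hyperglycemia versus BBDR.+/+, all 3 as lower, where 5.15% of all probe sets were called and 3.26% as lower. A dimmer probe set of Jak1, the kinase that pairs with Jak2 at the interferon gamma receptor, fell by 1.27 relative to BBDR.+/+ (adjusted p = 0.000398) and by 0.997 relative to pre-hyperglycemia (adjusted p = 0.00294), whereas its brightest probe set was at -0.22 and -0.15 and was not called. The dimmer probe set of Igtp fell by 0.84 relative to BBDR.+/+ (adjusted p = 0.00867), with the brightest at 0.27 and not called. For Cxcl9 both probe sets were lower, the dimmer by 1.01 (adjusted p = 0.000952). The dimmer probe set of Cxcl9 was also lower in pre-hyperglycemia than in BBDR.+/+ (-0.59, adjusted p = 0.0439).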
